A study of Mus musculus with 9 samples.

Results

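The genes described here are 40 cell cycle genes, 20 of DNA replication in S phase and 20 of the G2 phase and mitosis (G2/M), measured by RNA sequencing in LPS-stimulated mouse macrophages. They were found by symbol in a table of 15343 genes, all 40 were present, and all 40 passed the filter on low values that left 13895 genes for testing. The cells were wild type (WT) primary macrophages from the peritoneal cavity of a strain written CF7B1/6. Every group received lipopolysaccharide (LPS), a bacterial outer membrane lipid that activates macrophages through TLR4, at 100 ng/ml for 6 h. The LPS group had no pretreatment given in its labels, the DHA group was pretreated for 1 h with 100 µM DHA, the omega-3 fatty acid docosahexaenoic acid, and the cpdA group for 1 h with 10 µM cpdA, labelled an agonist of the fatty acid receptor Gpr120. Each group had 3 libraries, named here LPS 1 to 3, DHA 1 to 3 and cpdA 1 to 3. Each comparison with LPS thus covers the pretreatment step and the compound together. Cells without LPS were not analysed here, and the labels do not say whether libraries of a group came from separate animals or cultures, so p-values measure the spread between these libraries, which may be technical.

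Cells copy their DNA in S phase and divide in mitosis, and the genes for these steps are switched on in waves. Before replication, Cdc6 and Cdt1 load the Mcm helicase onto origins; cyclin E with its kinase and the factors of the E2F family then start S phase. Genes of G2 and mitosis, such as the B cyclins and Cdk1, come later and are controlled largely through promoter elements called CHR and CCAAT, which bind the MuvB-based complexes (DREAM, B-Myb and Foxm1) and NF-Y. Resident macrophages of the peritoneum can renew themselves by dividing in place, and LPS is known to hold back macrophage proliferation.

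Recovered depth ranged from 13797079 reads in DHA 1 to 37572822 in cpdA 2. In a principal component analysis of all genes tested, the first component (40.5% of the variance) set cpdA 3 apart from the other libraries and the second (28.8%) set LPS 3 apart, although their depth, 27144068 and 29521323 reads, lay within the range of the rest. Changes that rest on these libraries are therefore also given without them, from a fit of the other 7 libraries. Because LPS 3 and cpdA 3 were picked from these same data, p-values from that fit are descriptive. Leaving them out also lowers the spread: the median SE of G2/M changes with DHA went from 0.37 to 0.19. All 8 macrophage markers were found. Cd68 was at 33306 to 38110 normalized counts and Csf1r, the receptor of the macrophage growth factor, at 7572 to 21816. Lyz2 was at 210386 in LPS 3 and 269048 in cpdA 3, against 447053 to 459826 in the other libraries. Fcgr1 ranged from 957 to 10269. Col1a1, a fibroblast gene, was also found, at 6027 to 8645. A normalized count is a read count divided by a size factor of its library, as deposited by the authors, and is not corrected for gene length.

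The promoters of the members are shown first. The G2/M genes were low together in LPS 3 and cpdA 3 while most S phase genes were not. A link between this level and the promoter motifs was not tested. RefSeq promoter sequences (build GRCm38.p6, 250 bases before to 50 after a gene's start) were found for 16 of 20 G2/M and 16 of 20 S phase members. Below are those of Mki67, Top2a, Bub1b and Ccnb2, G2/M genes whose values are followed through the results, and, for contrast, of Mcm6, an S phase gene that was highest in LPS 3 and lowest in cpdA 3, and of Rrm2, which was low in both. Capitals mark CHR matches (TTTGAA), boxes of NF-Y with the letters CCAAT, and E2F matches (the forms TTCCCGC or TTGGCGC and the forms TTCGCGC or TTGCCGC) on either strand, and E2F matches on opposite strands can overlap each other.
Mki67 (chr7:135716330-135716629, minus strand): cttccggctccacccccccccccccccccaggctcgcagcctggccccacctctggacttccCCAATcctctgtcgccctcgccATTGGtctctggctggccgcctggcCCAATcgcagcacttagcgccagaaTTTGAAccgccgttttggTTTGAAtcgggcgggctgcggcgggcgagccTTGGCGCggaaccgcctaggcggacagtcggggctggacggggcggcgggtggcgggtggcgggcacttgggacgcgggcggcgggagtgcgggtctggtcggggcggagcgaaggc
Top2a (chr11:99024140-99024439, minus strand): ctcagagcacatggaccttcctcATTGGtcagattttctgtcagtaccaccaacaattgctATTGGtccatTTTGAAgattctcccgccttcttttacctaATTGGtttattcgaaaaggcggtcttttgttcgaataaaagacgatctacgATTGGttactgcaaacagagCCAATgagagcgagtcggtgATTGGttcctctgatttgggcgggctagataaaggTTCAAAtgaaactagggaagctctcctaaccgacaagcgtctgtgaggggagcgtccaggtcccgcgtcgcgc
Bub1b (chr2:118597961-118598260, plus strand): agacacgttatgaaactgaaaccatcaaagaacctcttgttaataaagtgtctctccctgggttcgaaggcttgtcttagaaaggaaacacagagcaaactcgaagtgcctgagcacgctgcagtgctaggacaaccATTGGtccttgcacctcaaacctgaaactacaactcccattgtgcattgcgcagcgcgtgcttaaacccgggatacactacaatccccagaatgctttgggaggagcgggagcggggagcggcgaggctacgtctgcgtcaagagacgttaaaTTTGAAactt
Ccnb2 (chr9:70421505-70421804, minus strand): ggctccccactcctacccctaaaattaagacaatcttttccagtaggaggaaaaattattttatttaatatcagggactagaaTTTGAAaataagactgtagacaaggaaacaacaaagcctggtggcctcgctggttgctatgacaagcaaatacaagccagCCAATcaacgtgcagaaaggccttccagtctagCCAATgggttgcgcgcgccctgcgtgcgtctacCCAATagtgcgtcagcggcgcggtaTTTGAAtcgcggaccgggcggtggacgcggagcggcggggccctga
Mcm6 (chr1:128359656-128359955, minus strand): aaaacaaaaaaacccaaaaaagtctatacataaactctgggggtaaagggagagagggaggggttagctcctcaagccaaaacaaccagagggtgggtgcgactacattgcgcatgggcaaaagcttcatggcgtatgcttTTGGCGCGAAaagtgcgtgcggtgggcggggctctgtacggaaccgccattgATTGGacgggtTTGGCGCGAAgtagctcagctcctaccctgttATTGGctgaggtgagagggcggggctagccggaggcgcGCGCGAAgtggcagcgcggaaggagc
Rrm2 (chr12:24708004-24708303, plus strand): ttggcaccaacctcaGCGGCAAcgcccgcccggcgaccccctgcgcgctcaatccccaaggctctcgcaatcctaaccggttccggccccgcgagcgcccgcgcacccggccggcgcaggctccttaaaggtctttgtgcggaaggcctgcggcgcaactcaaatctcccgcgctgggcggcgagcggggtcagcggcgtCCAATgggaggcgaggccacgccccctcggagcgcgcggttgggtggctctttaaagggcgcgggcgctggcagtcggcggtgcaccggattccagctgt

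The CHR letters were present in 11 of 16 G2/M promoters and in 2 of 16 S phase genes, and in 14.7% of 10464 tested genes with a promoter in the table (20.2% of all 27025 genes there). A CCAAT box was found in 14 of 16 G2/M genes and 9 of 16 S phase genes, against 43.2% of the tested genes. All 11 G2/M promoters with CHR also held CCAAT, a combination found in 1 of 16 S phase genes and 6.06% of tested genes. An E2F form stood in 11 of 16 S phase genes, 3 of 16 G2/M genes and 18.8% of tested genes. Top2a carries 6 CCAAT boxes and 2 CHR matches in its window, Ccnb2 carries 3 and 2, and Mcm6 carries 5 E2F matches and no CHR. A match describes the letters of the window and is not evidence of binding.

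**Figure D1:**
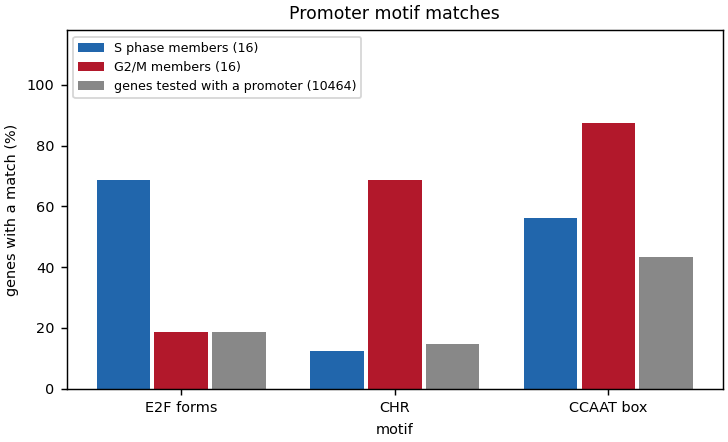
Share of genes (%, bars) with at least 1 match of each motif in a RefSeq promoter, for 16 S phase members, 16 G2/M members and 10464 tested genes. A CHR match is found in 68.8% of G2/M members and an E2F form in 68.8% of S phase members, against 14.7% and 18.8% of tested genes.

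The clearest pattern in the members was a low level of the G2/M genes in LPS 3 and cpdA 3, where the S phase genes deviated less. For each gene, the deviation from its median over the 9 libraries was taken on the log2(normalized count + 1) scale. The median deviation over the 20 G2/M genes was -1.0 in LPS 3 and -0.93 in cpdA 3, and from -0.03 to 0.24 in the other 7 libraries. Over the 20 S phase genes it was -0.09 in LPS 3 and -0.30 in cpdA 3, and from -0.01 to 0.16 in the others, while over all genes tested it was 0 in each library. The size factors and the use of each gene's own median hold this all-gene median near 0. It therefore does not show how far a median over 20 genes can vary. The spread of these medians within groups was a pooled SD of 0.47 for G2/M and 0.12 for S phase.

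**Figure D2:**
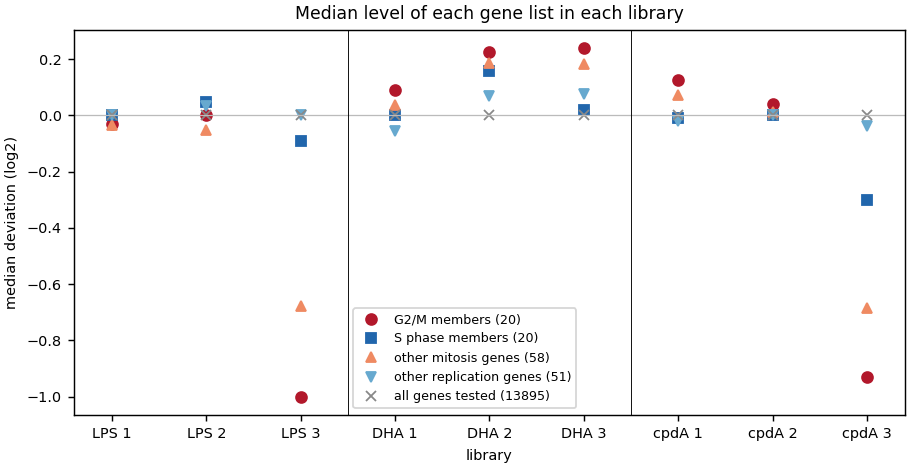
Median deviation from each gene's 9-library median (log2 scale, y axis) in each library (x axis) for 5 gene lists. G2/M members and other mitosis genes are low in LPS 3 and cpdA 3 (-1.0 and -0.93 for the G2/M members). The median of all genes tested lies at 0, near which the scaling holds it.

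LPS 3 and cpdA 3 held the 2 lowest values of all 9 libraries in 17 of 20 G2/M members, in 4 of 20 S phase members (Mcm5, Rrm2, Tk1 and Gins2), and in 11.9% of all genes tested. LPS 3 was below both other LPS libraries in 18 of 20 G2/M and 8 of 20 S phase members (41.6% of all genes), and cpdA 3 below both other cpdA libraries in 20 and 13 (44.7%). LPS 3 was at least 2-fold below the mean of the others in 10 G2/M and 1 S phase members (3.56% of all genes), and cpdA 3 in 12 and 2 (6.95%). In the other direction, LPS 3 was at least 2 times that mean in 1 of 40 members (Tpx2) and 5.04% of all genes. For cpdA 3 this held in 0 of 40 members and 6.87% of all genes. In 8 G2/M members, Mki67, Top2a, Ccnb1, Ccnb2, Cdk1, Cdc20, Bub1 and Kif11, both libraries were at least 2-fold below the mean of the others in their group, as were 1 S phase member (Rrm2) and 1.72% of all genes. In DHA 3, 0 of 40 members were that far below the others (0.943% of all genes). The 3 G2/M exceptions were Bub1b, Aurkb and Tpx2. In bulk RNA, fewer dividing cells and less RNA per dividing cell cannot be told apart.

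**Figure D3:**
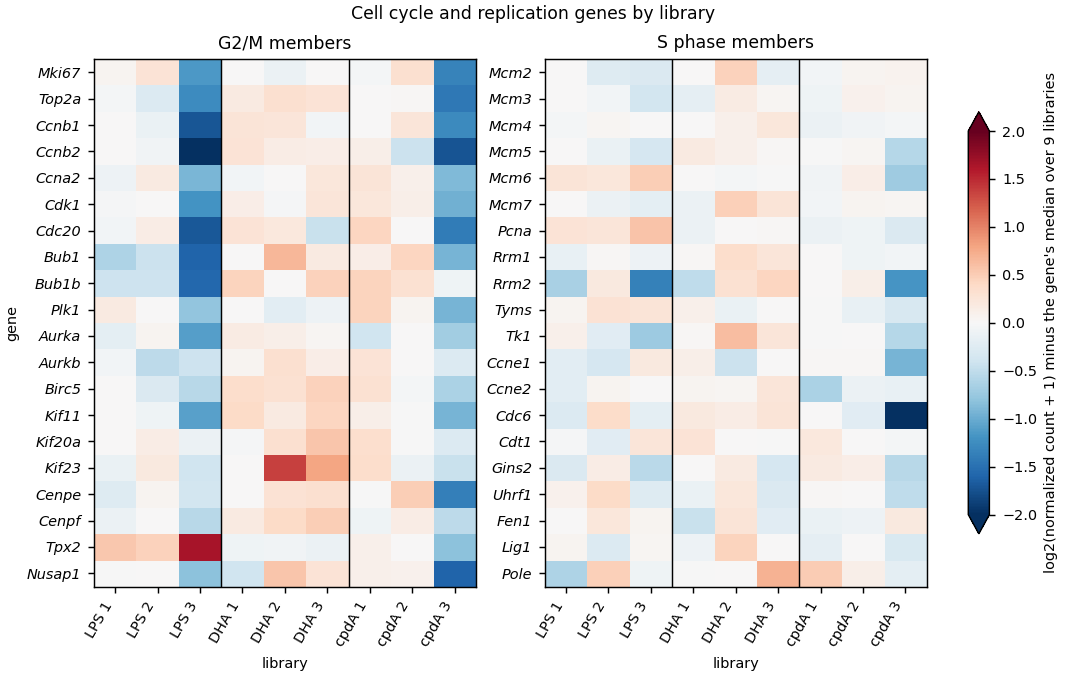
Deviation of each member (rows) from its median over the 9 libraries (log2 scale, colours; values beyond 2 in either direction are drawn at the end of the scale) in each library (columns). The columns of LPS 3 and cpdA 3 are blue for most G2/M members, whereas Tpx2 in LPS 3 is above its median.

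Mki67 (Entrez 17345), a widely used proliferation marker that coats mitotic chromosomes, had 3677, 4283 and 1606 normalized counts in LPS 1 to 3 against 3558, 3264 and 3569 in DHA 1 to 3 and 3463, 4428.5 and 1415 in cpdA 1 to 3. LPS 3 was at 0.40 times and cpdA 3 at 0.36 times the mean of the other libraries of their group, and LPS 1 and LPS 2 lay above all DHA libraries and between cpdA 1 and cpdA 2. Top2a (Entrez 21973), the topoisomerase that untangles sister chromosomes, had 291, 248 and 125 in LPS against 339, 374 and 359.5 with DHA and 298, 303 and 110 with cpdA. All 3 DHA libraries were above all LPS and all cpdA libraries for Top2a.

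The cyclins and their kinase were low in the same libraries. Ccnb2 (Entrez 12442), a B cyclin of the mitotic kinase, had 73.9, 70.3 and 11.3 normalized counts in LPS against 89.2, 82.3 and 81.2 with DHA and 80.4, 54.9 and 21.7 with cpdA. Its value in LPS 3 rests on 11 reads and was 0.16 times the mean of LPS 1 and LPS 2, the lowest such ratio among the members. Ccnb1, the other B cyclin, was at 0.31 and 0.37 times the other libraries' mean in LPS 3 and cpdA 3, Cdk1, the mitotic kinase itself, at 0.44 and 0.45, and Ccna2, the cyclin of S phase and G2, at 0.51 and 0.47. Cdc20, which activates the anaphase-promoting complex, was at 0.28 and 0.31.

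Among the mitotic kinases and spindle genes, Plk1, the polo-like kinase, was at 0.54 and 0.43 times the other libraries' mean in LPS 3 and cpdA 3, and Aurka, a kinase of spindle poles, at 0.48 and 0.69. Kif11, the motor that separates the poles, was at 0.48 and 0.50, and Nusap1, which bundles spindle microtubules, at 0.56 and 0.30. Cenpe, a kinetochore motor, was at 0.83 and 0.32, so it was low mainly in cpdA 3. Aurkb, the kinase of the chromosomal passenger complex, and Birc5, its survivin subunit, were less reduced, at 0.90 and 0.75 for Aurkb and 0.75 and 0.58 for Birc5. Kif20a and Kif23, motors of cytokinesis, were at 0.87 and 0.73 and at 0.73 and 0.66, and Cenpf, a kinetochore protein, at 0.70 and 0.67.

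Tpx2 (Entrez 72119), which activates Aurka on spindle microtubules, had another pattern. Its normalized counts were 608, 578.5 and 1308 in LPS against 392, 398 and 386 with DHA and 451, 418 and 236 with cpdA. LPS 3 had 2.21 times the mean of LPS 1 and LPS 2, the highest such ratio of the 40 members, and all DHA and all cpdA libraries lay below all LPS libraries. Its mean was 831 ± 413 in LPS, 392 ± 5.90 in DHA and 368 ± 116 in cpdA (SD, n = 3).

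In the S phase set, the other helicase subunits varied less across libraries than Mcm6. From the lowest to the highest library, Mcm4 ranged over 1.26-fold, Mcm3 1.45-fold, Mcm7 1.60-fold and Mcm2 and Mcm5 1.70-fold each. Mcm6 (Entrez 17219) had 1116, 1098 and 1317 normalized counts in LPS against 936, 908 and 934 with DHA and 888, 1026 and 571 with cpdA, so every LPS library was above every pretreated one. Cdt1, which loads the helicase, ranged over 1.42-fold. Cdc6 (Entrez 23834), its partner in loading, had 17.4, 27.7 and 18.4 in LPS against 24.5, 23.7 and 25.6 with DHA and 21.2, 18 and 4.50 with cpdA, with 5 reads behind the value in cpdA 3.

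The replication fork genes differed among themselves. Pcna (Entrez 18538), the clamp that holds polymerases on DNA, had 4826, 4702 and 5937 normalized counts in LPS against 3663, 3993 and 4044 with DHA and 3696, 3781 and 3256 with cpdA. All LPS libraries lay above all pretreated libraries, and the highest value was in LPS 3. Fen1, which processes Okazaki fragments, and Lig1, which joins them, ranged over 1.64-fold and 1.68-fold. Pole, the catalytic subunit of a leading-strand polymerase, ranged over 2.56-fold, with as few as 12 reads in a library. Uhrf1, which guides DNA methylation after replication, was at 0.71 times the other libraries' mean in LPS 3 and 0.70 times in cpdA 3, and Gins2, a subunit of the active helicase, at 0.71 and 0.61.

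Genes of nucleotide supply followed more than 1 pattern. Tyms (Entrez 22171), thymidylate synthase, had 835, 983 and 957 normalized counts in LPS against 860.5, 731 and 802 with DHA and 797, 727 and 639 with cpdA, with all cpdA libraries below all LPS libraries. Rrm1, the large subunit of ribonucleotide reductase, ranged over 1.41-fold. Rrm2 (Entrez 20135), its regulatory small subunit, had 42.4, 76.1 and 25.6 in LPS against 46.8, 82.3 and 90.1 with DHA and 66.7, 72.2 and 29.0 with cpdA. Tk1 (Entrez 21877), thymidine kinase, had 42.4, 33.4 and 23.5 in LPS against 40.1, 60.9 and 46.7 with DHA and 39.1, 39.4 and 26.3 with cpdA. Rrm2 and Tk1 were thus lowest in LPS 3 and cpdA 3, the same libraries as the G2/M genes. Ccne1 (Entrez 12447), a cyclin of the entry into S phase, had 681.5, 623 and 910 in LPS against 860.5, 584 and 791 with DHA and 807, 808 and 415 with cpdA, with LPS 3 highest and cpdA 3 lowest. Ccne2, the other E cyclin, was at 1.05 and 1.16 times the other libraries' mean there.

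Per kilobase of exon (GENCODE M21 basic transcripts), the mean over the 9 libraries was highest for Pcna, with 2774 normalized counts per kb, followed by Ccne1 with 360.0, Mki67 with 323, Tyms with 258 and Cdt1 with 236. The lowest were Pole with 4.06, Cdc6 with 4.20 and Cenpf with 4.33. Top2a had 52.1 per kb and Cdk1 28.3.

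**Figure D4:**
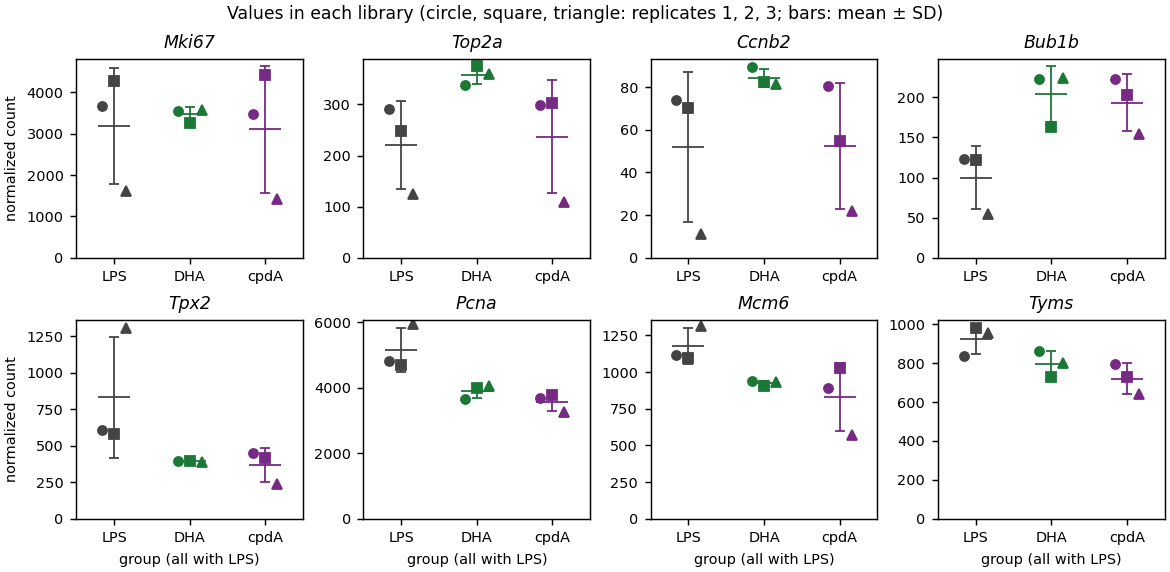
Normalized counts (y axis, from 0) of 8 members in each library by group (x axis), with mean and SD of 3 libraries. Mki67, Top2a and Ccnb2 are low in LPS 3 and cpdA 3, Tpx2 is at 1308 in LPS 3, and all LPS libraries lie above all pretreated ones for Pcna and Mcm6.

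The comparison of DHA with LPS asks what the fatty acid changed in stimulated cells. With all 9 libraries, none of the 40 members passed the test (limma on log2 values, Benjamini-Hochberg adjusted p under 0.05), where 1 of all 13895 genes did (0.0072%). At an unadjusted p under 0.05 there were 7 of 40 members and 14.2% of all genes, and the smallest adjusted p of a member was 0.247. On recovered reads of all libraries edgeR called 0.0216% and DESeq2 2.31% of the genes, and 0 members. Of the G2/M members, 19 of 20 had changes above 0 (median 0.53, log2), and of the S phase members 15 of 20 (median 0.17). The median over all genes tested was -0.0007, and 49.8% of them had a positive change. Without LPS 3 and cpdA 3 the G2/M median was 0.22, with 16 of 20 positive, and the S phase median stayed at 0.17. The G2/M value thus moved by more than 1.5 times with LPS 3, which had the low G2/M level; it was also 0.22 with LPS 3 alone left out.

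For 8 of 20 G2/M members all DHA libraries were above all LPS libraries, against 13% of all genes tested: Top2a, Ccnb2, Bub1, Bub1b, Aurkb, Birc5, Kif11 and Cenpf. In each of these genes the highest LPS value came from LPS 1 or LPS 2. LPS 3 was below both other LPS libraries in 18 of 20 G2/M members, against 41.6% of all genes. The 13% is thus not a like background, since it comes from genes in which LPS 3 was less often lowest. In Aurkb, LPS 3 was at 28.6 and not the lowest, as LPS 2 was at 26.5. The part of LPS 3 in all DHA libraries lying above all LPS libraries was not tested. Mcm5 was the 1 S phase member with this order, and Tpx2, Mcm6 and Pcna had all DHA libraries below all LPS libraries, as did 15% of all genes. Bub1b (Entrez 12236), a kinase-like protein of the spindle checkpoint, had 123, 122 and 54.2 normalized counts in LPS against 223, 163.5 and 225 with DHA and 223, 202.5 and 155 with cpdA. The pretreated libraries were all above the LPS libraries. Its change with DHA was 1.10 (log2, SE 0.31; limma adjusted p = 0.247) with all libraries. In the fit without LPS 3 and cpdA 3 it rose by 0.71 (SE 0.16; limma adjusted p = 0.0234), and edgeR on recovered reads of the same 7 libraries gave an adjusted p of 0.0174. Bub1 (Entrez 12235), the checkpoint kinase related to it, had 27.2, 31.1 and 13.3 in LPS against 42.4, 67.7 and 47.9 with DHA and 46.6, 57.4 and 21.7 with cpdA. Bub1 changed by 1.16 with DHA (SE 0.43; limma adjusted p = 0.295), and by 0.81 without LPS 3 and cpdA 3 (limma adjusted p = 0.0820).

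Tpx2 changed by -0.98 with DHA (SE 0.33; limma adjusted p = 0.282) and fell by 0.60 without LPS 3 and cpdA 3 (SE 0.09; limma adjusted p = 0.00398). Tpx2 and Bub1b were the 2 of 40 members that passed in that fit, which called 943 genes in all (6.79%), so 2 of 40 is near the background. Top2a changed by 0.78 (SE 0.42; limma adjusted p = 0.421) and by 0.41 in the fit of 7 libraries (limma adjusted p = 0.0519), where edgeR gave an adjusted p of 0.0391 and called 3 of 40 members (Tpx2, Top2a and Bub1b) and 8.33% of all genes. Mki67 changed by 0.24 (SE 0.45; limma adjusted p = 0.838), and without LPS 3 and cpdA 3 its direction turned, to -0.20 (limma adjusted p = 0.322). Ccnb2 changed by 1.08 (SE 0.70; limma adjusted p = 0.496) and by 0.22 in the fit of 7 libraries. In the S phase set, Pcna changed by -0.40 (SE 0.12, limma adjusted p = 0.260), Mcm6 by -0.34 and Tyms by -0.21 (limma adjusted p = 0.434 and 0.415). In the fit of 7 libraries these were -0.29 (limma adjusted p = 0.0531), -0.26 and -0.19. Rrm2 changed by 0.68 and Tk1 by 0.58 (limma adjusted p = 0.528 and 0.397), or by 0.30 and 0.36 in the fit of 7 libraries. Cdc6 changed by 0.24 and Ccne1 by 0.01 (limma adjusted p = 0.855 and 0.987), or by 0.16 and 0.17 in the fit of 7 libraries.

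**Figure D5:**
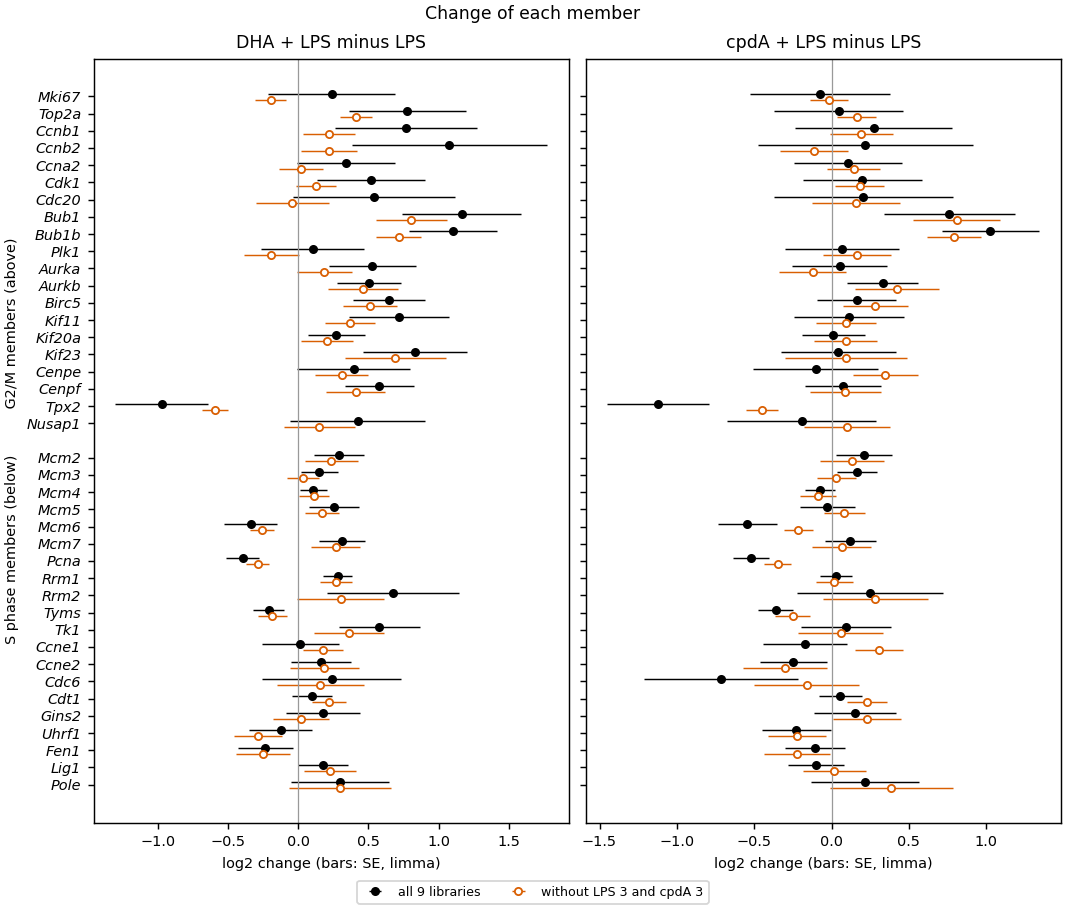
Log2 change of each member (x axis, bars are the SE from limma) with DHA (left) and cpdA (right) against LPS, with all 9 libraries (filled) and without LPS 3 and cpdA 3 (open). With DHA the G2/M median is 0.53 with all libraries and 0.22 without these, and Tpx2 and Pcna are below 0 in all 4 estimates.

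The comparison of cpdA with LPS asks the same of the Gpr120 agonist. None of the 40 members passed with all libraries (limma), where 1 of all genes did (0.0072%). At an unadjusted p under 0.05 there were 5 of 40 members and 14.6% of all genes, with a smallest adjusted p of 0.198 among members. With the replicate number as a block 0 genes passed. The median change was 0.09 over the G2/M members, with 16 of 20 positive, and -0.05 over the S phase members, with 9 of 20 positive, beside -0.0043 over all genes, of which 49.4% had a positive change. Here each group held 1 library with a low G2/M level: the G2/M median was -0.22 without LPS 3 alone, 0.45 without cpdA 3 alone and 0.15 without both. It was also below 0 without cpdA 1 (-0.1283) or cpdA 2 (-0.0212), and 0.27 without LPS 1 and 0.22 without LPS 2, so its direction rested on single libraries. The S phase median was 0.02 without both and 0.0689 without cpdA 3 alone.

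Pcna changed by -0.52 with cpdA (SE 0.12; limma adjusted p = 0.198), and by -0.35 without LPS 3 and cpdA 3 (limma adjusted p = 0.0895). DESeq2 on recovered reads of all libraries called Pcna lower (log2 change -0.52, adjusted p = 0.00505), along with Tpx2 (log2 change -1.17, adjusted p = 0.0313), where it called 3.26% of the 12000 genes it gave an adjusted p. In limma, Tpx2 changed by -1.12 (SE 0.33; adjusted p = 0.231) and by -0.45 without LPS 3 and cpdA 3 (adjusted p = 0.0558), where edgeR gave an adjusted p of 0.0385 and called 2 of 40 members (Tpx2 and Bub1b) and 2.09% of all genes. Bub1b changed by 1.03 (SE 0.31; limma adjusted p = 0.233), and without LPS 3 and cpdA 3 it rose by 0.79 (limma adjusted p = 0.0498), the 1 member of 40 that passed where 1.6% of all genes did. Tyms changed by -0.36 and Mcm6 by -0.54 (limma adjusted p = 0.240 and 0.262), with -0.25 and -0.21 in the fit of 7 libraries. Cdc6 changed by -0.71, Bub1 by 0.76, Mki67 by -0.07, Top2a by 0.05 and Ccnb2 by 0.22 (limma adjusted p = 0.529, 0.432, 0.959, 0.973 and 0.916). In the fit of 7 libraries these changes were -0.16 for Cdc6, 0.81 for Bub1, -0.0192 for Mki67 and 0.16 for Top2a, and the direction turned for Ccnb2, to -0.12. For Pcna, Mcm6, Tyms and Tpx2 all cpdA libraries were below all LPS libraries, as were 12.2% of all genes, and Bub1b was the 1 G2/M member with all of them above, against 10.7% of all genes. The DHA and cpdA comparisons share the LPS libraries, so their values for a member are not independent.

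Between the pretreatments, at doses that differ, no member and no gene passed (0% by limma, edgeR and DESeq2), and 1 of 40 members and 1.02% of all genes had an unadjusted p under 0.05 in limma. All 20 G2/M members had a negative change of cpdA against DHA with all libraries, with a median of -0.44, and 18 of 20 S phase members, with a median of -0.18. Over all genes the median was -0.0151 and 54.6% of changes were negative. Without LPS 3 and cpdA 3, 11 of 20 G2/M members were negative with a median of -0.03, and 13 of 20 S phase members with a median of -0.06. No member had all cpdA libraries above all DHA libraries (3.04% of all genes). In 10 members all cpdA libraries were below all DHA libraries, against 2.61% of all genes: Mcm4, Rrm1, Tk1, Ccne2, Cdc6, Top2a, Ccnb2, Aurka, Kif11 and Cenpf. Library cpdA 3 was below both other cpdA libraries in 33 of 40 members (44.7% of all genes). It was not the lowest cpdA library in Mcm4, Rrm1 or Ccne2. Their values in cpdA 1 to 3 were 311.1, 321.4 and 327.8 for Mcm4, 517.4, 487 and 497.1 for Rrm1, and 27.5, 39.4 and 38.9 for Ccne2. The part of cpdA 3 in the order of the 10 members was not tested. The changes with the largest size in each set were -0.95 in Cdc6 (SE 0.50), -0.49 in Tk1 (SE 0.29), -0.86 in Ccnb2 (SE 0.70) and -0.79 in Kif23 (SE 0.37), and were -0.32, -0.30, -0.34 and -0.60 without LPS 3 and cpdA 3. Kif23 (Entrez 71819) had 28.3, 35.7 and 23.5 normalized counts in LPS against 31.2, 82.3 and 54.5 with DHA and 40.2, 28.7 and 22.6 with cpdA, so its groups overlapped. A p above the threshold does not show that the pretreatments act alike.

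Other genes of the pathway were taken from 4 lists. Of 58 other mitosis genes, 52 had a positive change with DHA (median 0.48, and 0.24 without LPS 3 and cpdA 3) and 40 with cpdA (median 0.13, and 0.18 without them). LPS 3 and cpdA 3 held the 2 lowest values of all 9 libraries in 35 of the 58, and in 2 of 51 other replication genes. LPS 3 had a median deviation of -0.68 over the mitosis list and 0 over the replication list, and cpdA 3 had -0.69 and -0.04. The replication list had a median change of 0.09 with DHA and -0.02 with cpdA, or 0.08 and -0.0689 in the fit of 7 libraries. None of the tested genes of the 4 lists passed with all libraries in any comparison (smallest limma adjusted p = 0.161). Without LPS 3 and cpdA 3, 5 mitosis genes passed with DHA, 2 higher and 3 lower, and 2 replication genes, 1 higher and 1 lower (limma), where 6.79% of all genes passed, so these counts are near or below the background.

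Cenpa, the centromeric histone, was 1 of those higher with DHA. It had 51.1, 54.2 and 28.6 normalized counts in LPS against 80.3, 132 and 106 with DHA and 64.5, 65.6 and 37.1 with cpdA, with a change of 1.25 (SE 0.33; limma adjusted p = 0.233) and of 0.97 without LPS 3 and cpdA 3 (limma adjusted p = 0.0237). Stmn1, which destabilises microtubules, was the other, with 0.40 in that fit (limma adjusted p = 0.0496) and 0.81 with all libraries. Hmmr, a spindle and hyaluronan-binding protein, had 802, 870 and 825 in LPS against 642, 591 and 647 with DHA and 563, 632 and 457 with cpdA, and all pretreated libraries were below all LPS libraries. Without LPS 3 and cpdA 3, Hmmr fell by 0.42 with DHA and by 0.49 with cpdA (limma adjusted p = 0.0238 and 0.0393). Pttg1, the securin that restrains chromosome separation, fell by 0.49 and Ckap2l, a spindle protein, fell by 0.55 with DHA in that fit (limma adjusted p = 0.0385 and 0.0407). With all libraries Ckap2l was at -0.15. Among replication genes, Timeless, which protects the fork, fell by 0.47 with DHA in that fit (limma adjusted p = 0.0279) and was at -0.75 with all libraries.

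The regulators of entry into the cycle showed no common direction. Of 31 G1 regulators and transcription factors, 18 had a positive change with DHA (median 0.13, and 0.0105 without LPS 3 and cpdA 3) and 15 with cpdA (median -0.01 with and without them). Ccnd1, a D cyclin that starts G1, had 347, 370 and 836 normalized counts in LPS against 303, 324 and 331 with DHA and 344, 300.1 and 784 with cpdA, so LPS 3 and cpdA 3 were high for it. Ccnd2, another D cyclin, had 6705, 6732 and 6489 in LPS against 5925, 4924 and 5480 with DHA and 5683, 7180 and 518 with cpdA, and was low in cpdA 3 but not in LPS 3. Foxm1, an activator of G2/M genes, had 156.5, 142 and 107 in LPS against 138, 149 and 151 with DHA and 151, 129 and 86.9 with cpdA. Mybl2, which encodes B-Myb, was between 13.8 and 30.4 and was at 27.6 in LPS 3 and 25.4 in cpdA 3. E2f1 ranged from 241.5 to 374, Myc changed by 0.20 with DHA and 0.52 with cpdA, and E2f2 by 1.18 and 0.55 (limma adjusted p = 0.573, 0.231, 0.351 and 0.654). In the fit of 7 libraries Myc was at 0.0196 and 0.34 and E2f2 at 1.58 and 0.53. Rbl1, a pocket protein of the retinoblastoma family, had 3071.5, 2996 and 5551 in LPS against 2430, 2039 and 2632 with DHA and 2474, 2781 and 1327 with cpdA. Without LPS 3 and cpdA 3, Cdc25b, a phosphatase that activates Cdk1, rose by 1.08 and E2f5, a repressive E2F, fell by 0.43 with DHA (limma adjusted p = 0.0431 and 0.0319). Of the 31 genes, only these passed with DHA in that fit, 1 higher and 1 lower. With 6.79% of all genes passing there, this is near the background.

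Of 22 CDK inhibitors and p53 arrest genes, 12 had a positive change with DHA (median 0.06) and 15 with cpdA (median 0.18), but without LPS 3 and cpdA 3 the medians were 0.21 and 0.0594, and LPS 3 had a median deviation of 0.12 and cpdA 3 of 0.37 on this list. Cdkn1a, the p21 inhibitor of cyclin-dependent kinases, had 18732, 17265 and 14904 normalized counts in LPS against 19109, 12687 and 14805 with DHA and 19580, 17621 and 7513 with cpdA, and was lowest in cpdA 3. Cdkn1b, the p27 inhibitor, had 521 in cpdA 3 and 272 to 428.5 in the other 8 libraries. Gadd45a, a stress-induced arrest gene, had 252, 247 and 77.8 in LPS against 288, 821 and 564 with DHA and 288, 321 and 617 with cpdA, with changes of 1.59 and 1.18 (SE 0.53 for each; limma adjusted p = 0.279 and 0.350). The changes of Gadd45a in the fit of 7 libraries were 1.03 and 0.29 (limma adjusted p = 0.235 and 0.893). Cdkn2b, the p15 inhibitor, changed by 0.52 and 0.54 (SE 0.17 for each; limma adjusted p = 0.277 and 0.244), with all pretreated libraries above all LPS libraries. Mdm2, the ligase that degrades p53, and Btg2, an antiproliferative factor, fell by 0.37 and by 0.36 with DHA without LPS 3 and cpdA 3 (limma adjusted p = 0.0255 and 0.0450). They were the 2 of 22 that passed with DHA in that fit, where 6.79% of all genes passed, so this count is near the background.

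Markers of cell types also stood apart in the 2 libraries with a low G2/M level, but the markers of a list did not all go the same way. The summed normalized count of 8 macrophage markers was 332922 in LPS 3 and 386341 in cpdA 3, and from 562622 to 588638 in the others (332922 to 585247 over LPS, 562622 to 584779 over DHA and 386341 to 588638 over cpdA). Without Lyz2, which encodes lysozyme, the sums were 122537 and 117293, within the 114069 to 138696 of the others. In LPS 3, 4 of the 8 were below all other 7 libraries and 3 above them (Cd68, Mertk and Fcgr1), and in cpdA 3, 5 were below and 2 above (Cd68 and Csf1r). The 7 markers of resident peritoneal macrophages summed to 985 and 989 there, and from 2402 to 2730 elsewhere, with Cd5l at 372 and 438 against 1853 to 2175. Without Cd5l the sums were 613 and 551 against 485 to 621, and Gata6, their defining factor, was at 284.5 and 406 against 183 to 342. For monocyte-derived and dendritic cells (6 of 7 markers found) the sums were 22649 and 28446.5 against 41106 to 49042. Nearly all of it was Itgax, and the other 5 summed to 411 and 331 against 326 to 395. Neutrophil markers (3 of 8 found) summed to 228 and 138.5 against 390 to 506, with S100a8 and Camp low in both and Cxcr2 highest in LPS 3. Markers of mesothelium, fibroblasts and endothelium (10 of 10 found) were higher in sum, at 35047 and 27333 against 19119 to 23474, with 7 markers above all other 7 libraries in LPS 3, and 4 above and 3 below in cpdA 3. Those of mast cells, basophils and eosinophils (6 of 8 found) summed to 402 and 444 against 227 to 334, while Kit was below all others in both. The T and NK cell markers (4 of 9 found), mostly Lck, were at 467 in LPS 3 and 107 in cpdA 3, against 224 to 378, and the B cell markers (6 of 7 found) at 256 and 329.5, against 185 to 316. The sum of 5 nuclear transcripts, taken here as a rough sign of RNA quality, was 23374 in LPS 3 and 53798 in cpdA 3, against 12259 to 21749. Most of it in cpdA 3 was Neat1, at 46514. Without Neat1 the sums were 8625 in LPS 3 and 7284 in cpdA 3, against 3890 to 7060.5. Cd209a, a dendritic cell marker, was listed at 0 in DHA 1 and DHA 2, and Alas2, the 1 of 4 erythroid markers found, at 0 in cpdA 3 and at most 5.80 elsewhere. The part of these cells or of RNA quality in the G2/M level was not tested.

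Some members cannot be fully separated from other loci. The annotation names pseudogenes of Pcna, Tyms, Ccnb1 and Ccnb2 that could share reads with them, and the use of strand is not given. The spans of 15 members, among them Mcm7, Tk1, Ccna2, Cdc20, Aurka, Kif20a and Nusap1, overlap another gene of the RefSeq table (GRCm38.p6), so their values are less certain.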

How the data were processed

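RNA-seq libraries of LPS-stimulated mouse peritoneal macrophages, 3 per group, take their group from the sample titles. The signal values deposited by the authors are read counts divided by a size factor of the library, which the values show, and DESeq is named in the submitters' processing notes. Per the submitters' processing notes, CASAVA 1.8.2, Bowtie2 and the build mm9 were used. How reads were counted, with which annotation and whether by strand, is not given in the sources used here. Label protocols for growth and extraction concern other experiment types and were left out.

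Within a tolerance of 0.05 normalized counts, 99.9934% to 100% of each library's nonzero values were whole multiples of the worth of 1 read. Whole reads were recovered from them. Genes were kept if 3 or more libraries had a value of 10 or more. Tests used limma 3.58.1 (R 4.3.3, statmod 1.5.0) on log2 of the deposited value plus a pseudocount of 1, with all 9 libraries in 1 fit and trend and robust moderation, and Benjamini-Hochberg adjustment over all genes kept at a threshold of 0.05. Log2 changes on this scale understate those of low genes. Alternatives were pseudocounts of 0.5 and 8, no filter and a filter of 50, median-of-ratios and TMM scaling, plain limma moderation (no trend or robust options), the replicate number as a block, fits of the compared groups alone, LPS 3 and cpdA 3 left out, and each library left out. Recovered reads were also tested with DESeq2 1.42.0 and with edgeR's quasi-likelihood test (4.0.16). The choice of LPS 3 and cpdA 3 to leave out came from these data, in limma as in edgeR. The edgeR fit without them was added after seeing the data. The limma and edgeR steps were tested on simulated data.

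The members and lists were chosen with earlier results of these data known. All members could be named. Values in every library are given for the 4 of each set with the highest mean, those called, and the 2 of each set with the largest change in each comparison. From the wider lists, genes called, or else the 2 with the largest change in each comparison with LPS at a mean of at least 50, and 9 regulators set by name, could be named; 1 called gene of these lists is not reported here. Promoters are those of the first 6 of these members, by mean level, with an E2F or CHR match. Same-number LPS and cpdA libraries deviated together across genes (correlations of 0.387, 0.234 and 0.437), so the replicate number was tried as a block; the tests given are without it unless the block is named. With LPS 3 and cpdA 3 both apart, this is a hint from the data only. Levels per kb used the exon union of GENCODE M21 basic transcripts.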

Additional observations from a re-analysis of the deposited data

How the results depend on the processing

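With DHA, limma called 1 gene and 0 members with all libraries. It called 3 genes with a filter of 50 or TMM scaling, 0 without trend and robust options or with the replicate block, 9 with only the libraries compared, and 943 genes with 2 members without LPS 3 and cpdA 3. On recovered reads edgeR called 3 genes, DESeq2 called 315, and edgeR without LPS 3 and cpdA 3 called 1157 with 3 members. With cpdA it called 1 gene and 0 members. It called 0 without trend and robust options, with the replicate block or with only the libraries compared, and 222 genes with 1 member without LPS 3 and cpdA 3. DESeq2 called 391 with 2 members, and edgeR without LPS 3 and cpdA 3 called 290 with 2 members. The replicate block called 0 members in every comparison. Leaving out each library in turn, genes called ranged from 0 to 373 with DHA (373 without cpdA 3), from 0 to 3 with cpdA and stayed at 0 between the pretreatments, with 0 members throughout. The G2/M median then ranged from 0.22 to 0.71 with DHA, from -0.22 to 0.45 with cpdA and from -0.6498 to -0.0329 for cpdA against DHA, and the S phase median from 0.10 to 0.20, from -0.0934 to 0.0689 and from -0.23 to -0.0622. The S phase median of cpdA against DHA was -0.0622 without LPS 3 and cpdA 3. In all, 224 of the values and counts so compared stayed within limits and 40 moved, and the cause was not tested. The limits were 1.5 times for a count and 1 pooled SD between libraries for a median. For G2/M this SD was 0.47 and includes LPS 3 and cpdA 3, so the fall from 0.53 to 0.22 with DHA counted as within. Some medians could not move, such as those of DHA against LPS with a cpdA library left out. The 224 is thus not a measure of stability. A median within its SD could still turn sign, as the G2/M median with cpdA did without LPS 3, cpdA 1 or cpdA 2, and the S phase median with cpdA without LPS 3 and cpdA 3 (0.0241).

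Without LPS 3 and cpdA 3, in limma and then edgeR, the direction turned with cpdA for Ccne1 (0.31 and 0.31), Ccnb2 (-0.12 and -0.10), Sesn1 (-0.35 and -0.35), Asf1b (-0.0305 and -0.0249) and Cdkn1a (0.0467 and 0.05), and with DHA for Mki67 (-0.20 and -0.18). In limma alone it turned for E2f1 with cpdA (-0.0021) and Foxm1 with DHA (-0.0281). With each library left out in turn, changes crossed 0 with cpdA for Ccne1 (-0.33 to 0.15), Rrm2 (-0.13 to 0.66), Tk1 (-0.13 to 0.28), Mki67 (-0.51 to 0.42), Top2a (-0.32 to 0.53), Ccnb2 (-0.64 to 0.74), Kif23 (-0.17 to 0.23), Sesn1 (-0.0304 to 0.59), Cdca3 (-0.31 to 0.79), Ckap2l (-1.4494 to 0.13), Cdkn1a (-0.55 to 0.14), Ccnd1 (-0.56 to 0.27) and Foxm1 (-0.33 to 0.0628), and with DHA for Ccne1 (-0.10 to 0.18), Mki67 (-0.20 to 0.51), Ckap2l (-0.55 to 0.0862) and Foxm1 (-0.0281 to 0.24). Depth limits the lowest members most, with 5 reads for Cdc6 in cpdA 3 and 11 for Ccnb2 in LPS 3.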
